A study of Mus musculus with 9 samples.

Results

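The comparison described here set both IDH1 vectors together against the empty vector in mouse bone marrow cells that had been immortalised with HoxA9. It used all 9 of the 9 arrays of the study. The mean of the IDH1wt group and of the IDH1mut group, each given equal weight, was compared with the 3 CTL arrays for all 17731 genes that had a probe set with a single symbol. A gene was counted in the shared response when this combined difference passed an adjusted p of 0.05 and both IDH1 groups lay on the same side of CTL. Both groups lay on the same side of CTL for 12284 of the 17731 genes, 4743 of them higher and 7541 lower, before any test was applied. Both differences use the same 3 CTL arrays, which by itself puts them on the same side more often than not, so that count is no sign of a shared response.

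Per the labels, marrow cells of C57BL6 mice, already immortalised with HoxA9, were infected with a retrovirus and given to irradiated syngeneic recipients. Marrow was taken 4 weeks later, GFP-positive cells were sorted, and 3 µg of total RNA per sample went onto an Affymetrix expression array. The CTL samples held a vector with EGFP alone, the IDH1wt samples the pSF91 vector with wild-type IDH1 ahead of an IRES and EGFP, and the IDH1mut samples the same kind of vector with mutant IDH1 (its reporter is written as GFP). Every group had 3 arrays, and all 9 samples shared HoxA9, a retroviral vector, the transplantation and the sort. The labels name neither the IDH1 mutation nor the species of the insert, and they do not say whether replicates came from separate mice or separate infections. The p-values below therefore measure only the spread between these samples, which may be technical. All differences share the same 3 CTL arrays, so a response common to both IDH1 vectors and a peculiarity of the 3 CTL samples cannot be told apart.

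IDH1 is the cytosolic isocitrate dehydrogenase, which turns isocitrate into 2-oxoglutarate and makes NADPH. The cancer mutants of IDH1 convert 2-oxoglutarate into 2-hydroxyglutarate, which inhibits 2-oxoglutarate-dependent dioxygenases such as TET DNA demethylases and lysine demethylases. The wild-type enzyme lacks that activity. HoxA9 is a homeobox factor that blocks myeloid differentiation and keeps marrow progenitors dividing. Immediate early genes such as Fos, Jun and Egr1 encode transcription factors that are switched on within minutes by growth signals and stress, and heat shock genes such as Hspa1a encode chaperones induced by the factor HSF1 when proteins misfold.

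Named rises and falls, 12 each, were chosen among shared calls whose IDH1 and CTL arrays did not overlap. Their lack of overlap was therefore set by the choice. The largest of the 12 named falls were those of Hspa1a and Hspa1b, neighbouring heat shock genes on chromosome 17, and the immediate early genes Jun, Egr1 and Fosb were also among the 12. RefSeq promoter windows (GRCm38.p6, 250 bases before to 50 after the gene start, minus strand, read 5′ to 3′) are shown for 4 of them. Heat shock and growth signals are known to act through elements in such promoters. All 4 windows shown hold a match, so they do not stand for the 12 falls. Capitals mark a heat shock element of 2 units in Hspa1a, Hspa1b and Jun, and an EGR factor site in Fosb.
Hspa1a: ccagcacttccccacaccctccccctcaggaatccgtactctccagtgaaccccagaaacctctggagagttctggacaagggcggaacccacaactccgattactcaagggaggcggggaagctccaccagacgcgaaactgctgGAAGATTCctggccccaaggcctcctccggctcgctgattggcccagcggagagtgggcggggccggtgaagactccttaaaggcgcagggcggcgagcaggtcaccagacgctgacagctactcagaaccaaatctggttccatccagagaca
Hspa1b: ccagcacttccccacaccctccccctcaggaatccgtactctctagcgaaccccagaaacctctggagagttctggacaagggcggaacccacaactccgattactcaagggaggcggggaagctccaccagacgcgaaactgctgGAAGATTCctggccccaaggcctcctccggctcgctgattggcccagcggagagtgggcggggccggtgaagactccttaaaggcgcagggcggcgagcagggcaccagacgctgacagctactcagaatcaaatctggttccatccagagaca
Jun: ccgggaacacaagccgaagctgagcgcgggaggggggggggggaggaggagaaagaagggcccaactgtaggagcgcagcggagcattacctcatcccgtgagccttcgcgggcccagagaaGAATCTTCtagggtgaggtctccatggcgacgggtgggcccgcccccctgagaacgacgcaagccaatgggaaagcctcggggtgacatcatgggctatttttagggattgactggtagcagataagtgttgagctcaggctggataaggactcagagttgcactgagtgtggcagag
Fosb: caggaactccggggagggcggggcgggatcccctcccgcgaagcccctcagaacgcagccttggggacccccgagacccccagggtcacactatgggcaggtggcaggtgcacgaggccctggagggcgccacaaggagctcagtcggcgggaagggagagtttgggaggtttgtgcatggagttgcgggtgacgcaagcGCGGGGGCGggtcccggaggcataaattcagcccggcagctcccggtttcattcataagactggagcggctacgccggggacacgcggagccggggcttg
The windows lie at chr17:34972107-34972406 (Hspa1a), chr17:34959189-34959488 (Hspa1b), chr4:95052173-95052472 (Jun) and chr7:19309996-19310295 (Fosb). Those of Hspa1a and Hspa1b were identical at 296 of 300 aligned bases (98.7%), with the heat shock element at the same place, 104 to 97 bases before the start. Both genes encode the inducible HSP70 chaperone, and their transcripts are near-identical, so the array may not separate them. The promoter table held 17601 windows for 14033 of the 17731 genes. A heat shock element of 2 units (GAANNTTC or TTCNNGAA, either strand) stood in 12.6% of all these windows, in 13 of the 31 windows of the heat shock list (41.9%) and in 4 of the 10 windows of the 12 falls named below. The EGR site (GCGTGGGCG or GCGGGGGCG, both strands) stood in 5.39% of all windows, in 7 of the 29 windows of the immediate early list and in 2 of the 10 windows of the falls. Across the 74 windows of the genes called lower in each IDH1 group, 11 held the heat shock element of 2 units (14.9%) and 5 the EGR site (6.76%). The 4 windows of the falls with that element include the near-identical ones of Hspa1a and Hspa1b. The heat shock element of 3 units, the AP-1 site, the CRE and the CArG box were also searched. Each stood in 0 of the 10 windows of the falls. The element of 3 units stood in 0.540% of all windows and 5 of 31 of the heat shock list. The CArG box stood in 1.39% of all windows and 5 of 29 of the immediate early list. Both stood in 0 of the 74 windows. These are letter matches only.

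Hspa1a and Hspa1b were high in every CTL array and low in every IDH1 array. Hspa1a read 9.03, 8.98 and 9.26 on the log2 scale in CTL, 4.01, 4.56 and 3.88 in IDH1wt, and between 4.36 and 5.06 in IDH1mut. All 6 IDH1 arrays lay below all 3 CTL arrays, by more than 3 log2 units. Hspa1a fell by 4.61 ± 0.18 (SE) in the mean of both groups, a 24.5-fold drop (limma, adjusted p = 3.38e-07). The log2 difference was -4.94 in IDH1wt and -4.29 in IDH1mut, and the direct comparison of the IDH1 groups gave 0.66 (limma, adjusted p = 0.0563). Hspa1b read 9.46, 9.64 and 9.78 in CTL, 3.91, 5.15 and 4.44 in IDH1wt, and 6.22, 5.48 and 6.35 in IDH1mut. Its groups did not overlap either, and here the IDH1wt arrays lay lowest. Hspa1b fell by 4.37 ± 0.25 (SE), and IDH1mut lay 1.52 above IDH1wt on the log2 scale (limma, adjusted p = 0.00572).

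Of the 17731 genes, 2183 passed in the combined comparison (12.3%), 1211 higher (6.83%) and 972 lower (5.48%) in the IDH1 arrays. For 61 of them the IDH1 groups lay on opposite sides of CTL, which left a shared response of 2122 genes, 1172 higher (6.61% of genes tested) and 950 lower (5.36%). Most of these differences were small: 167 of the 2122 reached a 2-fold mean difference, 116 up and 51 down, and 53 were at least 2-fold in each group, 30 up and 23 down. The 6 IDH1 arrays lay wholly outside the CTL range for 1399 of the 2122 genes, 810 above and 589 below. Over all genes tested, 6.16% had all 6 IDH1 arrays above CTL and 6.24% had all 6 below.

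The shared direction was carried unequally by the 2 vectors. In the separate comparisons with the same CTL arrays, 3663 genes passed in IDH1mut and 414 in IDH1wt. Among the 2122 shared genes, 284 passed in each group alone, 1638 in IDH1mut only, 77 in IDH1wt only and 123 in neither. The difference from CTL was larger in IDH1mut for 1769 genes and larger in IDH1wt for 353, and the median ratio of the IDH1wt to the IDH1mut size was 0.504. Rises had a median of 0.37 on the log2 scale in IDH1wt and 0.68 in IDH1mut, and falls of -0.29 and -0.58. In the direct comparison of IDH1mut with IDH1wt, which used no CTL array and in which 13.3% of all genes passed, 878 of the 2122 passed, with IDH1mut further from CTL in 829 and IDH1wt further in 49.

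The 284 genes called in each group comprised 202 rises (1.14% of genes tested) and 82 falls (0.462%), and 280 of them had no overlap between IDH1 and CTL arrays. Their median rise was 0.72 in IDH1wt and 0.85 in IDH1mut, and their median fall -0.80 and -0.81. Requiring a pass in each group itself favours similar sizes and arrays that do not overlap. The direct comparison passed for 67 of the 284. Counts moved with single arrays: the shared response held 861 genes without CTL replicate 1, 1404 without CTL replicate 2 and 1023 without CTL replicate 3, and 750 of the 2122 kept their call whichever of the 9 arrays was left out. Dropping CTL replicate 1 gave 104 genes called in each group instead of 284, dropping CTL replicate 3 gave 108, and dropping IDH1wt replicate 2 or 3 gave 140 or 113. A model with the 6 IDH1 arrays as a single group, which counts the difference between the vectors as spread, called 447 genes. The counts of gene lists below stand beside shares over all genes of 6.61% higher and 5.36% lower in the shared response. List counts at an unadjusted p under 0.05 stand beside 4769 of all 17731 genes in the combined comparison, whatever their side. Those of members passing in IDH1wt alone stand beside 414 of 17731. Unadjusted counts in IDH1wt alone have no share over all genes beside them.

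**Figure D1:**
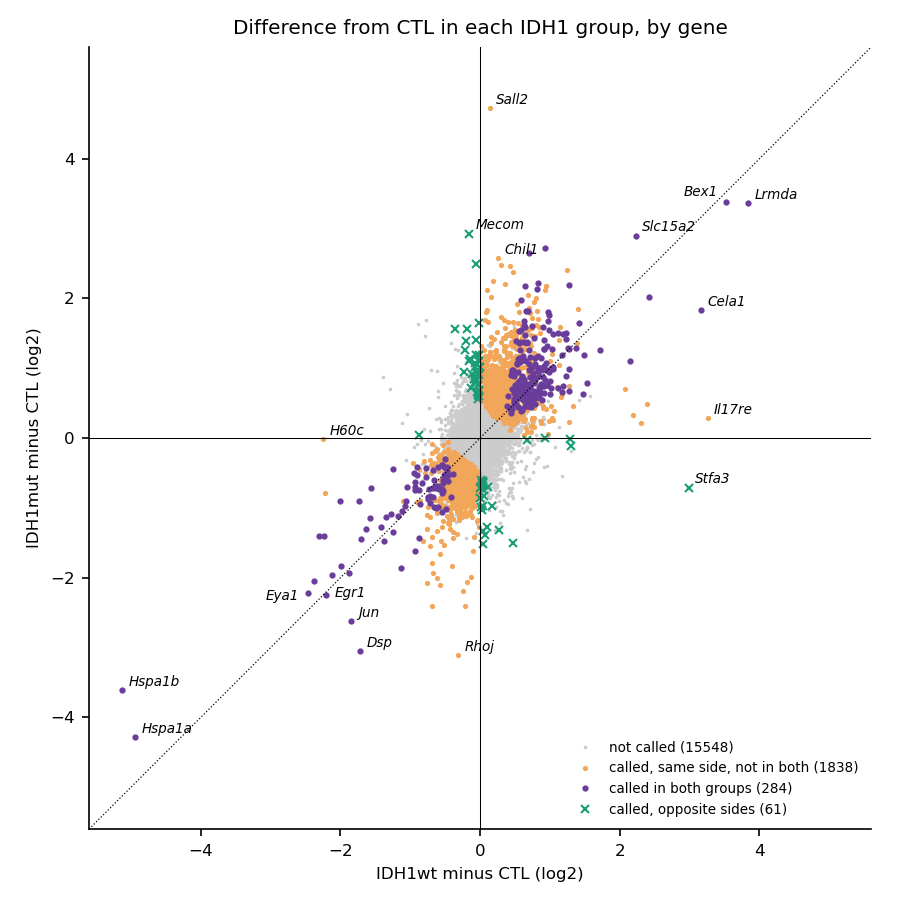
Difference from CTL in mean log2 value for each of 17731 genes, IDH1wt on the x axis and IDH1mut on the y axis, with both axes resting on the same 3 CTL arrays; the dotted line marks equal differences. Purple points (284 genes) passed in each group, 67 of them with a direct difference between the vectors, with Hspa1a and Hspa1b at the lower left and Bex1 and Lrmda at the upper right; orange points (1838 genes) passed together without passing in each, and green crosses (61) lie on opposite sides.

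Of 28 measured immediate early genes, 9 fell in the shared response and 0 rose by limma, beside 5.36% of all genes lower. Of those 9, 6 passed in each IDH1 group, beside 0.462% of all genes called lower in each. At an unadjusted p under 0.05, 11 members lay lower and 2 higher with both groups on the same side. Over all genes 4769 of 17731 passed that threshold, whatever their side. The median difference of the whole list was only -0.17 in IDH1wt and -0.10 in IDH1mut, beside -0.04 in each for all genes, so the fall lay in particular members. Jun, an AP-1 subunit, read 9.85, 9.61 and 9.87 in CTL, 7.99, 7.91 and 7.91 in IDH1wt, and 7.57, 7.01 and 6.90 in IDH1mut. The 3 groups did not overlap, and IDH1mut lay lowest. Jun fell by 2.23 ± 0.13 (SE), a 4.7-fold drop (limma, adjusted p = 8.47e-06), and the direct comparison of the vectors passed (-0.78, limma, adjusted p = 0.00796).

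Egr1, a zinc finger factor induced by serum and growth factors, read 8.97, 8.66 and 8.96 in CTL, 6.21, 7.04 and 6.72 in IDH1wt, and 6.96, 6.32 and 6.60 in IDH1mut. Its IDH1 groups overlapped each other and lay wholly below CTL. Egr1 fell by 2.22 ± 0.18 (SE; limma, adjusted p = 5.47e-05), and the difference between the vectors was -0.03 with a 95% interval from -0.49 to 0.42. Fosb, another AP-1 subunit, read 5.82, 4.99 and 5.73 in CTL, 2.93, 3.53 and 2.94 in IDH1wt, and 3.48, 3.47 and 3.43 in IDH1mut. All 6 IDH1 values were below the lowest CTL value, and Fosb fell by 2.22 ± 0.18 (SE; limma, adjusted p = 6.07e-05). The IDH1 values of Fosb lay under the array medians of 4.65 to 4.72, where RMA compresses differences.

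Fos itself was less uniform. It read 11.86, 11.54 and 11.73 in CTL, 9.78, 10.22 and 9.93 in IDH1wt, and 11.66, 10.27 and 10.50 in IDH1mut, so that IDH1mut replicate 1 lay inside the CTL range and the groups overlapped. Fos fell by 1.31 ± 0.25 (SE; limma, adjusted p = 0.00612), by 1.73 in IDH1wt and by 0.90 in IDH1mut. Rhob, a small GTPase gene induced early by growth signals and stress, fell by 0.71 ± 0.09 (SE; limma, adjusted p = 0.000951) with no overlap. Ier3 fell by 0.66, and its call was lost without CTL replicate 1 (adjusted p = 0.0584) and without CTL replicate 2 (adjusted p = 0.0777). Ier5, an immediate early response gene, read 10.12, 10.12 and 10.10 in CTL, 9.36, 9.39 and 9.17 in IDH1wt, and 9.93, 9.85 and 9.59 in IDH1mut. It fell by 0.57 ± 0.09 (SE; limma, adjusted p = 0.00351), did not pass in IDH1mut alone (adjusted p = 0.0564), and differed between the vectors (limma, adjusted p = 0.0145).

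Several other immediate early genes did not pass. The mean of Atf3, a stress-induced factor, was 6.42 ± 0.15 (SD, n = 3) in the CTL arrays, against 6.66 ± 0.18 for IDH1wt and 6.48 ± 0.23 for IDH1mut. Klf2, a zinc finger factor, lay between 9.44 and 9.73 in all 9 arrays. Dusp1, an early phosphatase gene that restrains MAP kinases, read 10.53, 10.43 and 10.52 in CTL and 12.16 in IDH1mut replicate 1, against 10.44 and 10.72 in the other IDH1mut arrays. The same IDH1mut array thus held the highest Fos and the highest Dusp1 value of its group. Leaving that array out gave 10 falling members of the list, 8 of them called in each group, the highest such count. Over all 9 such omissions the falls ranged from 6 to 11 and the rises from 0 to 2. The members called in each group ranged from 4 to 8, and most omissions left 4.

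Heat shock chaperones did not fall as a class. Of 28 measured members, 5 fell and 1 rose in the shared response, the list medians were -0.06 in IDH1wt and -0.03 in IDH1mut, and 3 genes passed in each group: Hspa1a, Hspa1b and Hspa8, which encodes the constitutive HSC70. The 5 falls became 3 without CTL replicate 1, CTL replicate 2, IDH1wt replicate 3 or IDH1mut replicate 3. Hspa8 read 7.83, 7.58 and 7.78 in CTL, 6.40, 6.64 and 6.41 in IDH1wt, and 7.42, 7.01 and 7.43 in IDH1mut. The IDH1mut arrays lay between the other groups without overlap, and Hspa8 fell by 0.85 ± 0.11 (SE; limma, adjusted p = 0.00114), more in IDH1wt than in IDH1mut (limma, adjusted p = 0.00288). Several inducible members did not pass. Dnajb1, the HSP40 partner of HSP70, read between 8.26 and 8.53 in all 9 arrays, Hsp90aa1, an HSP90 gene, between 9.96 and 10.63, and Hspb1, a small heat shock protein gene, between 5.51 and 5.95. Hsph1, an HSP70 nucleotide exchange factor, averaged 5.91 ± 0.27 (SD, n = 3) in the CTL arrays, with 5.94 ± 0.07 for IDH1wt and 6.47 ± 0.08 for IDH1mut.

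**Figure D2:**
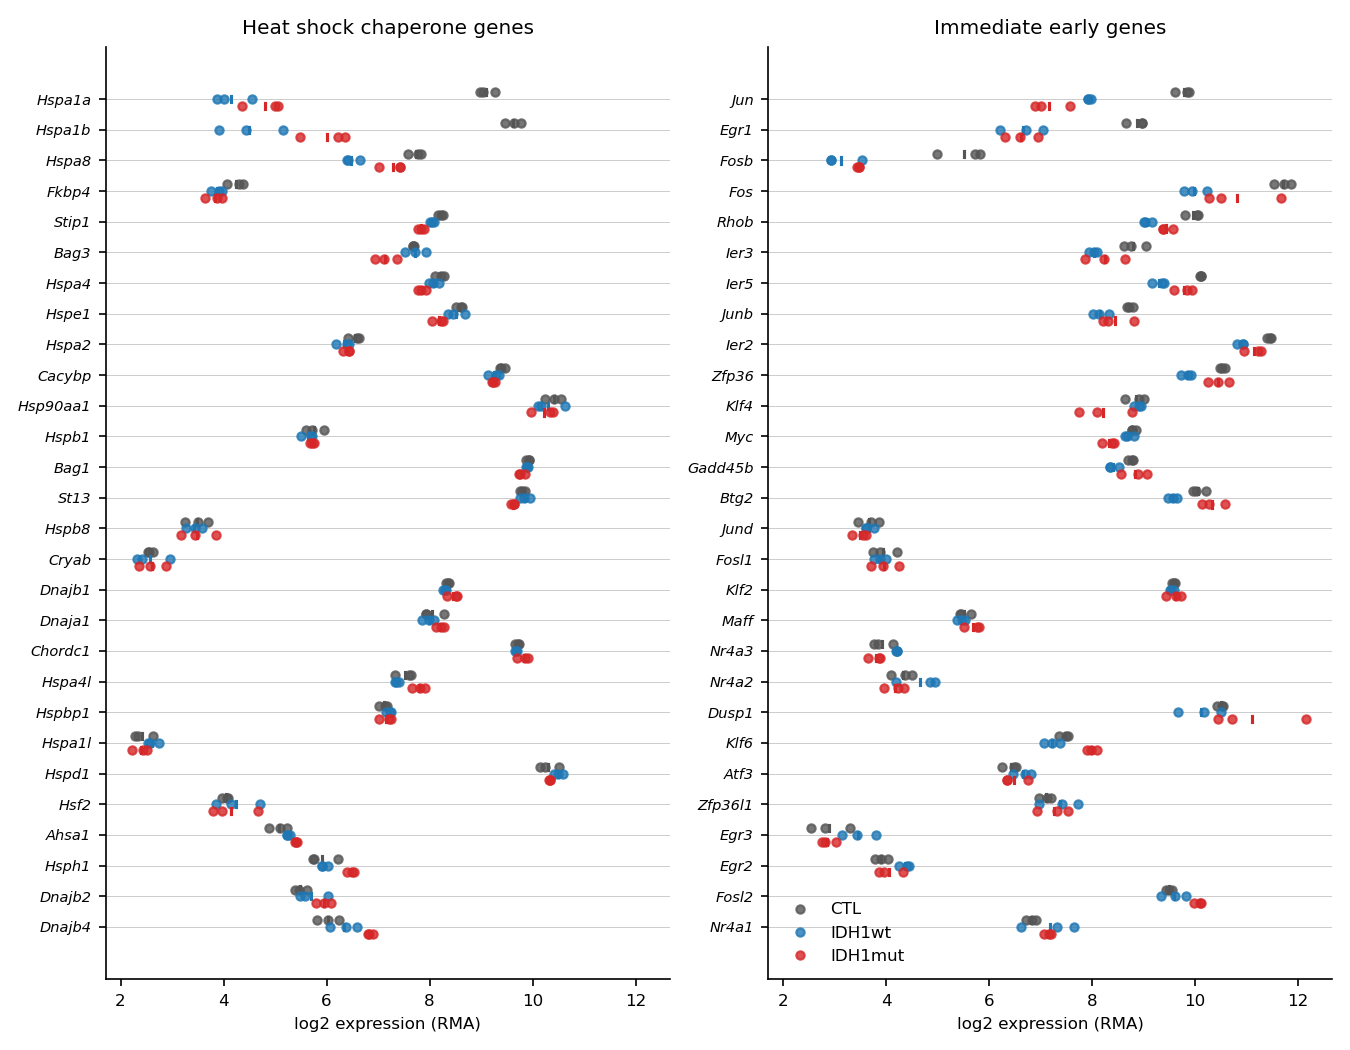
Log2 expression (x axis) of the 28 heat shock and 28 immediate early genes measured, with 1 point per array, 3 arrays per group and short vertical lines at the group means. Hspa1a and Hspa1b drop from about 9 in CTL to between 3.88 and 6.35 in the IDH1 arrays, and Jun, Egr1 and Fosb drop in all 6, while most other members shown move less.

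The 12 named falls also held genes with other roles, chosen by the size of the smaller group difference among calls without overlap. Eya1, a transcription coactivator and phosphatase of organ development, read 6.53, 5.95 and 6.52 in CTL and between 3.66 and 4.50 in the 6 IDH1 arrays. It fell by 2.35 ± 0.19 (SE; limma, adjusted p = 5.24e-05), with -2.47 in IDH1wt and -2.22 in IDH1mut. Eya1 was the single member to pass of 9 measured genes of the Eya developmental network. Pde4d, a cAMP phosphodiesterase, read 5.15, 4.47 and 4.93 in CTL, 2.60, 3.50 and 2.82 in IDH1wt, and 2.68, 3.10 and 2.99 in IDH1mut. It fell by 1.90 ± 0.20 (SE; limma, adjusted p = 0.000261) without overlap.

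Ptprg, a receptor tyrosine phosphatase, fell by 1.91 ± 0.14 (SE; limma, adjusted p = 3.36e-05), from 4.24 ± 0.39 (SD, n = 3) to 2.25 ± 0.15 and 2.40 ± 0.06. Those IDH1 means sit near the low end of the scale, where RMA compresses differences. Dyrk3, a protein kinase, fell by 1.58, and Crhbp, which binds corticotropin-releasing hormone, by 1.86 (limma, adjusted p = 0.00128 and 0.000848). Clca1 read 5.08, 3.49 and 5.70 in CTL and between 2.42 and 2.99 in the IDH1 arrays, so CTL replicate 2 lay much closer to the IDH1 arrays than the other CTL arrays did. It fell by 2.04 ± 0.35 (SE; limma, adjusted p = 0.00417), and the test without variance moderation gave an adjusted p of 0.0562.

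Dsp, the desmosomal plaque protein desmoplakin, was graded between the groups. It read 7.68, 7.52 and 7.86 in CTL, 6.60, 5.16 and 6.15 in IDH1wt, and 3.84, 5.06 and 5.02 in IDH1mut. The 3 groups did not overlap. Dsp fell by 2.38 ± 0.31 (SE; limma, adjusted p = 0.00101), and further in IDH1mut than in IDH1wt (difference -1.33, limma, adjusted p = 0.0323). Of 14 measured desmosome and junction genes, 2 fell and 1 rose in the shared response. The other fall was Pkp3, a plakophilin, by 0.83, whose call was lost without CTL replicate 1 (adjusted p = 0.0506) and without CTL replicate 3 (adjusted p = 0.0719). The rise was Perp, described with the genes that IDH1wt moved further.

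Among the rises, Bex1 and Lrmda stood highest by the smaller of the group differences. Bex1, an X-linked gene of a small brain-expressed adaptor family, read 2.03, 2.57 and 2.43 in CTL, 6.61, 4.87 and 6.09 in IDH1wt, and 4.50, 6.88 and 5.77 in IDH1mut. CTL values sat at the bottom of the scale, the IDH1 arrays varied by more than 1 log2 unit within each group, and the groups did not overlap with CTL. Bex1 rose by 3.45 ± 0.46 (SE), 10.9-fold (limma, adjusted p = 0.00105), by 3.51 in IDH1wt and 3.38 in IDH1mut. Lrmda, whose human counterpart is tied to melanocyte differentiation, read 4.18, 4.44 and 4.56 in CTL, 8.32, 8.10 and 8.29 in IDH1wt, and 7.82, 8.10 and 7.35 in IDH1mut. It rose by 3.60 ± 0.15 (SE), 12.1-fold (limma, adjusted p = 3.96e-07), with tight values inside each group.

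Bex4, a relative of Bex1, read 2.98, 3.82 and 3.44 in CTL, 4.78, 4.70 and 4.96 in IDH1wt, and 4.34, 6.30 and 5.13 in IDH1mut. It rose by 1.63 ± 0.33 (SE; limma, adjusted p = 0.00897) but did not pass in IDH1wt alone (adjusted p = 0.0843), and without CTL replicate 1 the combined adjusted p was 0.0564. Tceal8, of the related transcription elongation factor A-like family, rose by 1.39, and that call was lost without CTL replicate 1 (adjusted p = 0.0668), CTL replicate 2 (0.0971), CTL replicate 3 (0.0843) or IDH1mut replicate 3 (0.0597). Of 16 measured Bex, Tceal and Armcx genes, 3 rose and 1, Armcx2, fell, the last by 0.56 and not without CTL replicate 1 (adjusted p = 0.0674). Chromosome X as a whole held 47 shared rises and 16 shared falls among 602 genes (7.81% and 2.66%, beside 6.61% and 5.36% of all genes). Rises made up larger shares on chromosomes 12 (9.21%), 1 (8.55%) and 19 (8.38%), and 4 of the 30 rises of at least 2-fold in each group lay on chromosome X.

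Slc15a2, a proton-coupled peptide transporter, read 4.44, 5.56 and 4.70 in CTL, 6.69, 7.51 and 7.21 in IDH1wt, and 7.88, 7.69 and 7.83 in IDH1mut. Its 6 IDH1 arrays lay above CTL, and it rose by 2.57 ± 0.23 (SE; limma, adjusted p = 8.9e-05). Mfsd2b, which exports sphingosine 1-phosphate from red cells and platelets, rose by 1.53, and Slc12a9, a cation-chloride cotransporter relative, by 1.27 (limma, adjusted p = 0.000449 and 0.000349). Ptprj, a receptor tyrosine phosphatase also called CD148, rose by 1.27 ± 0.16 (SE; limma, adjusted p = 0.000732) with values of 4.02 to 4.37 in CTL and 5.14 to 5.82 in the IDH1 arrays. Tmem267, a membrane protein gene, rose by 1.49 and further in IDH1wt than in IDH1mut (limma, adjusted p = 0.0401).

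Erdr1, an erythroid differentiation regulator gene at the pseudoautosomal end of the sex chromosomes, read 6.63, 6.99 and 6.59 in CTL, 9.09, 9.22 and 9.15 in IDH1wt, and 8.43, 8.94 and 8.91 in IDH1mut. It rose by 2.22 ± 0.13 (SE; limma, adjusted p = 6.53e-06). Cela1, a pancreatic-type elastase gene, read 7.16, 7.12 and 6.99 in CTL, 10.94, 9.35 and 10.48 in IDH1wt, and 8.90, 9.24 and 8.63 in IDH1mut. It rose by 2.50 ± 0.27 (SE; limma, adjusted p = 0.000312), more in IDH1wt (3.17) than in IDH1mut (1.83; limma, adjusted p = 0.0162 for the difference). Fubp1, a single-strand DNA binding protein that drives Myc, rose by 1.33 ± 0.21 (SE; limma, adjusted p = 0.00255). Sfmbt2, a Polycomb protein, rose by 1.27 in IDH1wt and 2.20 in IDH1mut, from CTL values of 4.72, 4.79 and 4.74, and the vectors differed (limma, adjusted p = 0.000173).

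**Figure D3:**
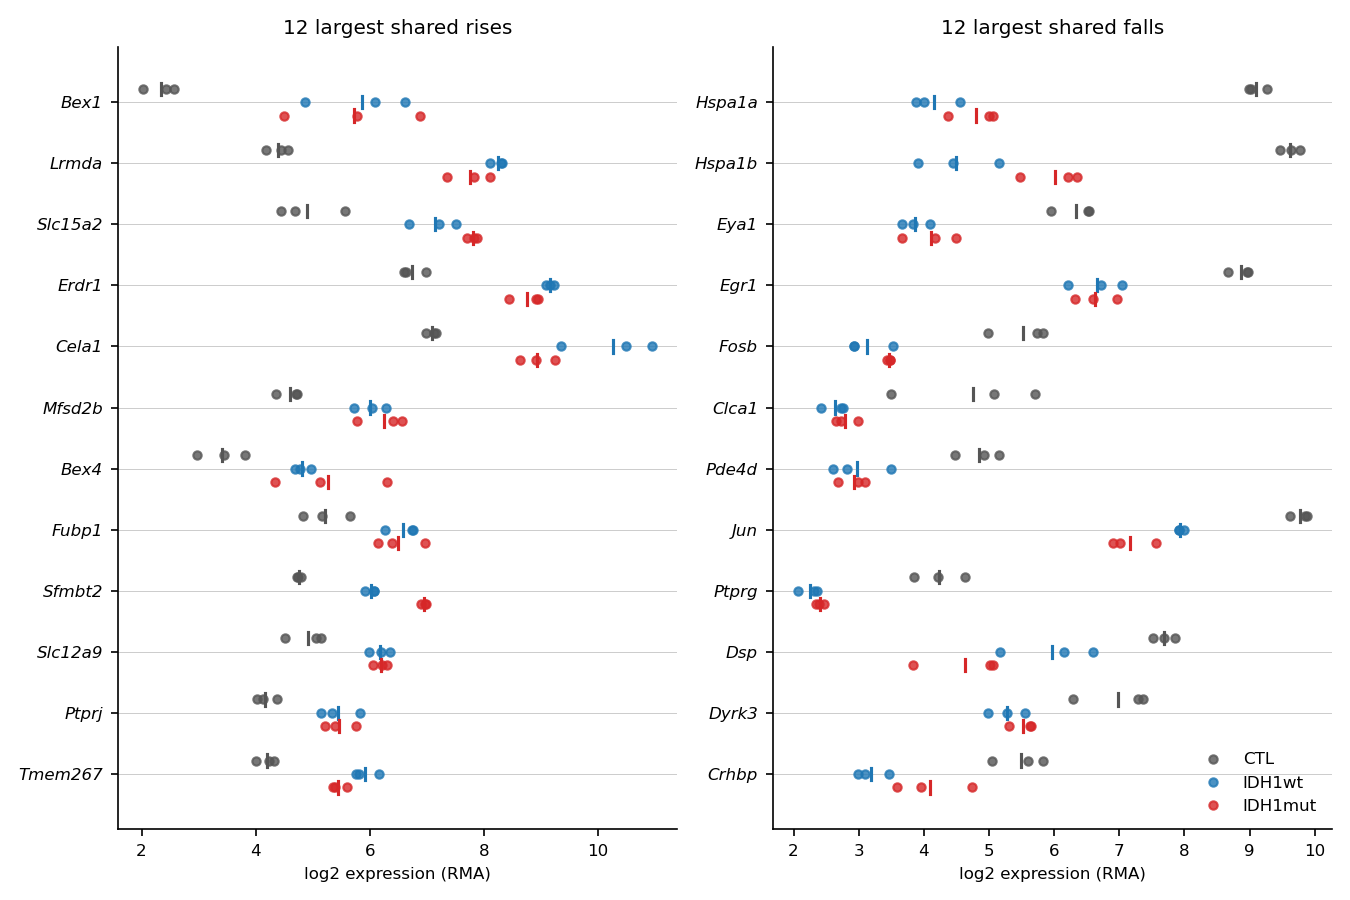
Log2 expression (x axis) of the 12 named rises and 12 named falls, with 1 point per array, 3 arrays per group and short vertical lines at the group means. The rule that chose the 24 genes required all 6 IDH1 arrays to lie on one side of the 3 CTL arrays. Clca1, Bex1 and Bex4 show the widest spread within a group.

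Mouse Idh1 did not pass in any comparison. It read 10.70, 10.64 and 10.67 in CTL, 10.70, 10.45 and 10.61 in IDH1wt, and 10.84, 10.52 and 10.56 in IDH1mut, with a combined difference of -0.06 ± 0.09 (SE; limma, adjusted p = 0.743). The probed part and the species of the insert are not known here, so this checks neither the labels nor expression of the vector. Hoxa9 likewise did not pass (-0.12 ± 0.13, limma, adjusted p = 0.593), with all 9 values between 3.32 and 4.21, and the labels do not describe the HoxA9 construct. Idh2, the mitochondrial enzyme, read 9.24, 9.25 and 9.28 in CTL, 9.20, 8.90 and 9.09 in IDH1wt, and 8.60, 8.57 and 8.60 in IDH1mut. Idh2 fell by 0.43 ± 0.08 (SE; limma, adjusted p = 0.00723), mainly in IDH1mut (-0.66), and the vectors differed (limma, adjusted p = 0.00814). Of 32 measured isocitrate and tricarboxylic acid cycle genes, 1 rose and 2 fell, which is near or below the 6.61% and 5.36% of all genes. With single arrays left out 0 or 1 rose and 1 to 3 fell.

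Of 41 measured dioxygenases that use 2-oxoglutarate, 2 rose and 5 fell, beside 6.61% and 5.36% of all genes, and 1 passed in each group. With each array left out in turn 1 to 3 rose and 1 to 4 fell. The gene that passed in each group, Kdm2a, a histone H3 lysine demethylase, read 6.21, 5.99 and 6.03 in CTL, 6.77, 7.15 and 6.82 in IDH1wt, and 6.65, 6.70 and 6.64 in IDH1mut. It rose by 0.71 ± 0.10 (SE; limma, adjusted p = 0.00136), and its groups did not overlap with CTL. Egln1, an oxygen-sensing prolyl hydroxylase, fell by 0.41, which no longer passed without CTL replicate 3 (adjusted p = 0.0576). Alkbh2, a DNA alkylation repair enzyme, fell by 0.53, which no longer passed when CTL replicate 1 (adjusted p = 0.0659) or CTL replicate 3 (0.058) was dropped.

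Cdkn2a, the p16 and p19Arf locus, read 6.51, 5.83 and 6.78 in CTL, 5.96, 5.60 and 5.52 in IDH1wt, and 4.10, 3.89 and 3.91 in IDH1mut. IDH1wt overlapped CTL, whereas IDH1mut did not. Cdkn2a fell by 1.55 ± 0.18 (SE; limma, adjusted p = 0.000482), but the IDH1wt difference of -0.68 did not pass alone (adjusted p = 0.122) and the vectors differed (limma, adjusted p = 0.000506). Cdkn2b, the p15 gene beside it, did not pass (0.14, limma, adjusted p = 0.381). Cdkn1a, the p21 inhibitor, fell by 0.40 (limma, adjusted p = 0.0182), with no overlap, and lost that call without CTL replicate 1 (adjusted p = 0.0925), 2 (0.0635) or 3 (0.0535). Of 25 measured mitosis genes, 0 were shared calls by limma. At an unadjusted p under 0.05, 4 lay higher and 0 lower on the same side, beside 4769 of all 17731 genes on any side.

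Genes of the marrow lineages are described next. Because the RNA came from bulk sorted cells, fewer cells of a type and less RNA per cell cannot be told apart. Of 21 measured late neutrophil genes, 10 rose and 0 fell in the shared response by limma (0 lower at an unadjusted p under 0.05), and 1 passed in each group. Those 10 were the only members with both groups on the same side of CTL, beside 12284 of all 17731 genes. In the combined comparison 12 members passed, all higher. In IDH1mut alone 16 rose and 1 fell by limma, beside 3663 of all 17731 genes passing. The list median was 0.00 in IDH1wt and 0.70 in IDH1mut. The gene that passed in each group, Mmp8, neutrophil collagenase, read 10.07, 10.61 and 10.05 in CTL, 10.94, 10.94 and 10.79 in IDH1wt, and 12.44, 12.46 and 12.35 in IDH1mut. The 3 groups did not overlap, and Mmp8 rose by 1.41 ± 0.12 (SE; limma, adjusted p = 7.93e-05), with a vector difference of 1.53 (limma, adjusted p = 0.000143). Its combined call held whichever array was left out, but its call in each group was lost without CTL replicate 1 or 3, any single IDH1wt replicate, or IDH1mut replicate 2 or 3. Chil1, a chitinase-like protein of neutrophil granules, rose by 2.58 in IDH1mut and was 0.25 above CTL in IDH1wt (adjusted p = 0.242).

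Primary granule genes, made at the promyelocyte stage, went the other way. Of 15 measured, 6 fell in the shared response and 0 rose by limma. With both groups on the same side, 0 lay higher at an unadjusted p under 0.05. In the combined comparison 9 passed, all lower, but not all with both groups on the same side. In IDH1mut alone 9 fell and 1 rose by limma, beside 3663 of all 17731 genes passing. In IDH1wt alone 0 passed by limma, beside 414 of all 17731 genes, and 4 lay lower at an unadjusted p under 0.05. Elane, neutrophil elastase, read 11.51, 11.19 and 11.45 in CTL, 11.13, 11.10 and 10.98 in IDH1wt, and 10.24, 10.35 and 10.13 in IDH1mut. All IDH1wt arrays lay just below CTL and the IDH1mut arrays well below, and Elane fell by 0.72 ± 0.09 (SE; limma, adjusted p = 0.00101). The summed log2 value of 6 measured neutrophil defining markers ran from 72.2 to 73.3 in CTL, 73.2 to 73.6 in IDH1wt and 76.8 to 77.0 in IDH1mut. That of 4 granulocyte precursor markers ran from 50.8 to 51.3, 50.5 to 50.9 and 47.4 to 47.7. These sums moved in IDH1mut and hardly in IDH1wt, and their part in the shared response was not tested. The neutrophil markers did not move as a whole. Mmp8, Ltf and Cxcr2 passed in the combined comparison, whereas Camp, Ngp and Lcn2 did not and had groups on opposite sides of CTL. From CTL to IDH1mut the mean of Mmp8 went from 10.24 to 12.41, and that of Ngp from 14.01 to 14.05.

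Erythroid genes rose in 11 of 21 measured members by limma, with 0 falls (0 lower at an unadjusted p under 0.05). In IDH1wt alone 0 passed by limma, beside 414 of all 17731 genes. There 6 lay higher and 1 lower at an unadjusted p under 0.05. The IDH1wt arrays disagreed among themselves. Hemgn, an erythroid nuclear protein, read 7.53, 7.40 and 7.73 in CTL, 7.32, 9.16 and 8.41 in IDH1wt, and 9.20, 9.42 and 9.22 in IDH1mut. IDH1wt replicate 1 lay below the CTL range, while IDH1wt replicate 2 reached that of IDH1mut. The combined rise of 1.23 ± 0.29 (SE; limma, adjusted p = 0.0183) was lost without CTL replicate 1 (adjusted p = 0.0718), 2 (0.0744) or 3 (0.0529). Tfrc, the transferrin receptor, read 9.06, 9.35 and 9.23 in CTL, 9.20, 10.24 and 9.87 in IDH1wt, and 10.27, 10.45 and 10.43 in IDH1mut, and its rise of 0.87 was lost without CTL replicate 1 (adjusted p = 0.0595).

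Without IDH1wt replicate 1 the erythroid count was 17 rises, 10 of them called in each group. Leaving out CTL replicate 1, 2 or 3 gave 1, 5 or 3 rises, and leaving out IDH1wt replicate 3, IDH1mut replicate 2 or IDH1mut replicate 3 gave 6. The summed log2 value of 4 measured erythroid markers ran from 23.0 to 23.5 in CTL, 21.8 to 27.1 in IDH1wt and 27.0 to 28.4 in IDH1mut. Of these markers, Alas2 and Rhag passed in the combined comparison (limma, adjusted p = 0.02 and 0.0457), and Klf1 did not (0.0872). Hba-a1 did not pass either (adjusted p = 0.288). It lay below the median of all genes, with means of 3.41 in CTL, 3.13 in IDH1wt and 3.38 in IDH1mut. Tal1, a blood stem and erythroid transcription factor, was steadier. It read 7.56, 7.38 and 7.55 in CTL, 8.07, 8.36 and 8.21 in IDH1wt, and up to 8.49 in IDH1mut (8.28 ± 0.25, SD, n = 3). All 6 IDH1 arrays lay above CTL, and Tal1 rose by 0.75 ± 0.11 (SE; limma, adjusted p = 0.00228). Of 25 measured stem and progenitor genes, 2 rose and 2 fell in the shared response, beside 6.61% and 5.36% of all genes. In that list 1 gene passed in each group, and in the erythroid list 0 did.

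**Figure D4:**
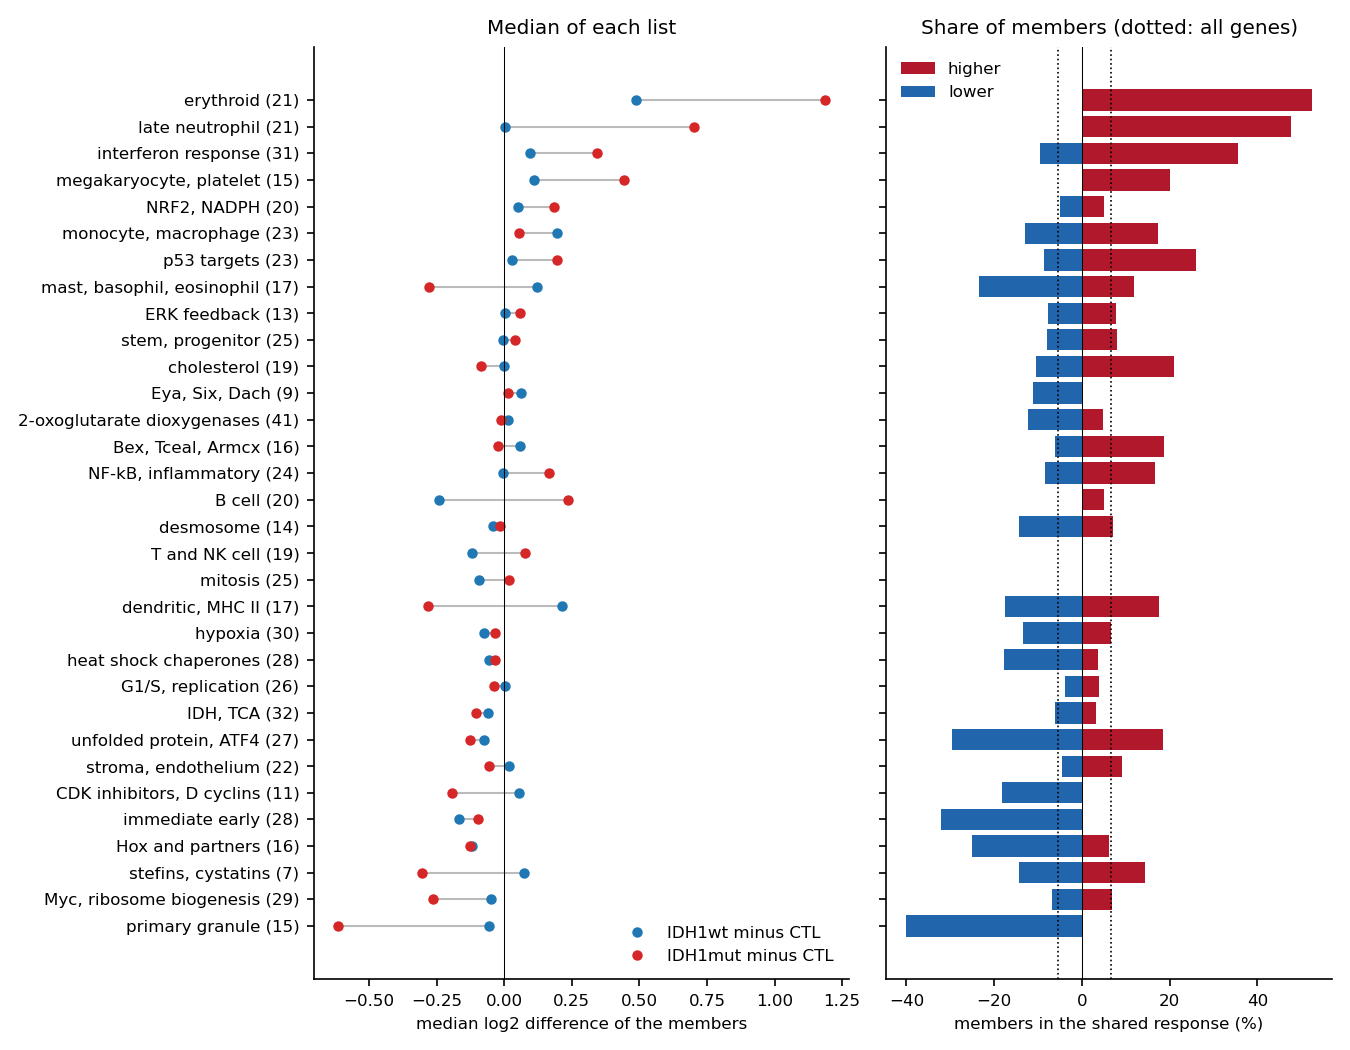
Left, median log2 difference from CTL of the members of 32 gene lists with at least 7 measured members, in IDH1wt (blue) and IDH1mut (red); the number measured is in brackets. Right, percent of members in the shared response, higher to the right and lower to the left, with dotted lines at the shares over all genes, 6.61% and 5.36%; erythroid and late neutrophil lists lead the rises with IDH1mut medians well above those of IDH1wt, and primary granule and immediate early lists lead the falls.

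Interferon response genes rose in 11 and fell in 3 of 31 measured members, and 3 rose in each group. Ifit3, an interferon-induced antiviral protein, read 6.44, 6.51 and 6.33 in CTL, 7.13, 7.17 and 7.19 in IDH1wt, and 8.36, 7.97 and 7.78 in IDH1mut. The 3 groups did not overlap and stood in that order, and Ifit3 rose by 1.17 ± 0.12 (SE; limma, adjusted p = 0.000188). Rsad2, or viperin, rose by 0.57 in IDH1wt and 1.37 in IDH1mut. Ifit2 rose by 0.44 in IDH1wt and 0.43 in IDH1mut, with values of 7.36 to 7.47 in CTL and 7.75 to 7.91 in the IDH1 arrays. Those 3 calls in each group were all lost without CTL replicate 1, CTL replicate 3, IDH1wt replicate 2 or IDH1wt replicate 3, and the 3 falls became 0 without CTL replicate 1 or 3 and 1 without IDH1wt replicate 3. The 11 rises ranged from 8 to 13.

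Of 23 measured monocyte and macrophage genes, 4 rose and 3 fell, beside 6.61% and 5.36% of all genes, and 2, Slc40a1 and Vcam1, passed in each group. With each array left out in turn 1 to 5 rose and 2 to 4 fell. Slc40a1, the iron exporter ferroportin, read 9.18, 9.60 and 9.21 in CTL, 9.90, 9.97 and 9.88 in IDH1wt, and 10.22, 10.17 and 10.11 in IDH1mut, and rose by 0.71 ± 0.10 (SE; limma, adjusted p = 0.00136). Vcam1, a vascular and macrophage adhesion molecule, read 6.88, 6.55 and 6.77 in CTL, 5.99, 6.14 and 6.24 in IDH1wt, and 5.59, 5.77 and 5.87 in IDH1mut, and fell by 0.80 ± 0.10 (SE; limma, adjusted p = 0.000882). In both genes the CTL arrays lay apart from all 6 others, but neither passed in each group without CTL replicate 1 or 3 or without IDH1wt replicate 2 or 3. Stfa2l1, a stefin-type protease inhibitor, rose by 1.17 in IDH1wt and 0.66 in IDH1mut (limma, adjusted p = 0.0308 for the vector difference).

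Unfolded protein and ATF4 genes rose in 5 and fell in 8 of 27 measured members, beside 6.61% and 5.36% of all genes. In IDH1wt alone 0 passed by limma, beside 414 of all 17731 genes. There 4 lay higher and 4 lower at an unadjusted p under 0.05. With each array left out in turn the rises ranged from 0 (without CTL replicate 3) to 4 and the falls from 4 (without CTL replicate 1 or 3) to 8. Sdf2l1 and Pdia4, both endoplasmic reticulum folding factors, fell by 0.68 and 0.53 (limma, adjusted p = 0.00264 and 0.00768). Asns, asparagine synthetase, rose by 0.54 (limma, adjusted p = 0.0124), but did not pass in IDH1wt alone (adjusted p = 0.231), nor together without CTL replicate 1 (adjusted p = 0.0674) or CTL replicate 3 (0.0697). Of 19 measured T and NK cell genes, 0 were shared calls by limma. At an unadjusted p under 0.05, 1 lay lower and 0 higher, beside 4769 of all 17731 genes on any side.

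Some genes of the shared response differed strongly between the vectors, so their combined mean describes neither group. Sall2, a zinc finger factor, read 2.75, 2.63 and 2.49 in CTL, 2.76, 2.58 and 2.94 in IDH1wt, and 7.76, 7.48 and 6.81 in IDH1mut. IDH1wt overlapped CTL in part, and the combined rise of 2.43 was the mean of 4.73 in IDH1mut and 0.14 in IDH1wt (adjusted p = 0.781). Il17re, an interleukin 17 receptor chain, went the other way. It read 5.67, 5.70 and 5.32 in CTL, 9.78, 7.68 and 9.01 in IDH1wt, and 5.67, 6.19 and 5.70 in IDH1mut, a rise of 3.26 in IDH1wt against 0.29 in IDH1mut (adjusted p = 0.673).

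Perp, a p53 target of cell junctions, read 3.45, 3.52 and 3.64 in CTL, 5.45, 5.93 and 5.79 in IDH1wt, and 3.69, 4.05 and 3.88 in IDH1mut. All 6 IDH1 arrays lay above CTL, but the IDH1mut difference of 0.33 did not pass (adjusted p = 0.11). Pls3, an actin-bundling protein, rose by 2.38 in IDH1wt and was 0.49 higher in IDH1mut (adjusted p = 0.134). H60c, an NKG2D ligand, fell by 2.25 in IDH1wt and differed by -0.02 in IDH1mut (adjusted p = 0.97).

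For 10 genes each group passed with opposite signs, and 9 of these did not pass together. Stfa3, a stefin, did pass together: it read 8.29, 7.63 and 8.41 in CTL, 10.90, 11.36 and 11.05 in IDH1wt, and 7.44, 7.34 and 7.43 in IDH1mut. IDH1wt lay above and IDH1mut below CTL, and the combined rise of 1.14 (limma, adjusted p = 0.00141) is the mean of 2.99 and -0.71. Mecom, the EVI1 stem cell and leukemia gene, lay on opposite sides too, with -0.16 in IDH1wt (adjusted p = 0.715) and 2.93 in IDH1mut. Meis1, the HoxA9 cofactor, was 0.02 in IDH1wt (adjusted p = 0.963) and 1.10 in IDH1mut, and its combined call was lost without CTL replicate 1 (adjusted p = 0.0712), 2 (0.0978) or 3 (0.0543).

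**Figure D5:**
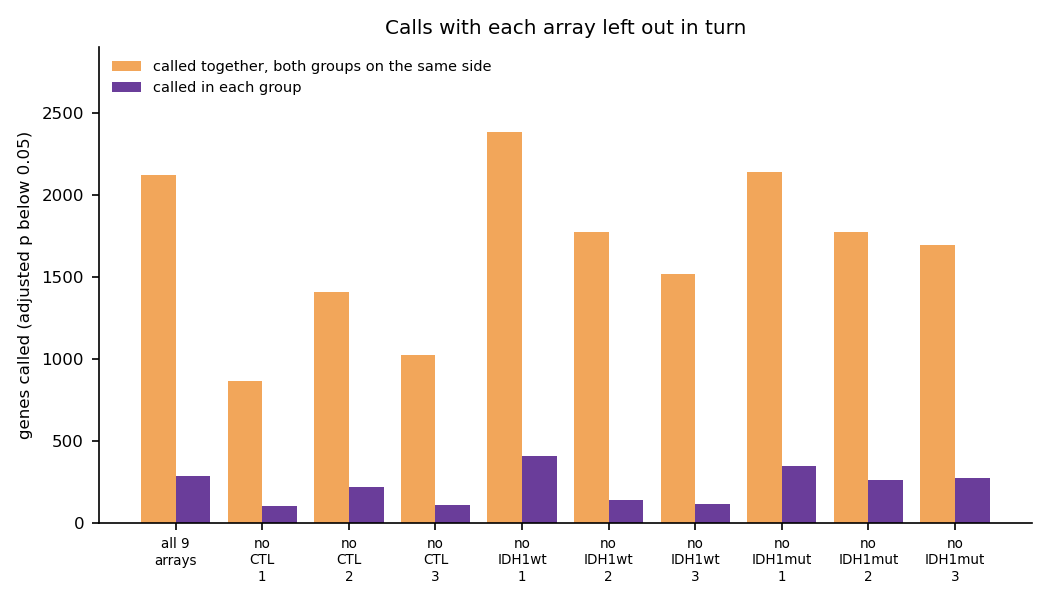
Number of genes called (limma, adjusted p under 0.05) with all 9 arrays and with each array left out in turn, for the combined comparison with both groups on the same side (orange) and for genes called in each group (purple). The shared count runs from 861 without CTL replicate 1 to 2382 without IDH1wt replicate 1.

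Across the series, arrays of a group correlated between 0.992 and 0.997 over genes, CTL with IDH1 arrays between 0.982 and 0.992, and IDH1wt with IDH1mut between 0.985 and 0.988. The array medians lay between 4.65 and 4.72. Genes whose mean lay under the array median made up 14.5% of the shared response and 46.5% of all genes. Defining markers of other cell types were set against the median of all genes. All 3 measured for monocytes, 4 for macrophages, 3 for megakaryocytes and 4 for mast cells, basophils and eosinophils lay above it. So did 3 of 4 for stem and progenitor cells (Slamf1 below). For B cells 1 of 3 measured lay above it (Vpreb1, with Cd79a and Pax5 below). For T and NK cells it was 2 of 3 (Cd3e and Cd3g, with Ncr1 below). For stroma and endothelium it was 2 of 4 (Cxcl12 and Pecam1, with Col1a1 and Cdh5 below). Summed log2 values of the B cell markers ran from 16.2 to 18.5 in CTL, 14.3 to 16.9 in IDH1wt and 17.8 to 20.4 in IDH1mut. Those of the T and NK cell markers ran from 14.4 to 15.1, 13.8 to 14.7 and 15.3 to 16.0, and those of stroma and endothelium from 19.2 to 20.4, 19.5 to 20.8 and 18.8 to 20.0. The part of these cells in the shared response was not tested. RMA gives no detection call, so a low level is not shown to be absence, and the number of arrays limits the precision.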

How the data were processed

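RNA of sorted marrow cells was hybridised to 9 Affymetrix mouse expression arrays, 3 for each of 3 groups. The deposited values are log2 expression per probe set. RMA, which corrects background, normalises arrays by quantiles and summarises probes, is the only step in the submitters' processing notes, and no version of it is named there. Of 20877 probe sets, 17815 had a single symbol in an annotation of 2016, and the 244 with several and the 2818 with none were left out. Where a gene had several probe sets, the one with the highest average was used, and low values were not filtered.

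With limma 3.58.1 (R 4.3.3), group means were estimated from the 9 arrays together. The contrasts were the equal-weight mean of both IDH1 groups against CTL, each group against CTL, and IDH1mut against IDH1wt, all two-sided with moderated variances and Benjamini-Hochberg adjustment over 17731 genes (threshold 0.05). "Rose" and "fell" mark genes past it, differences are given ± moderated standard error (SE), and group means ± SD. The combined contrast was tested on simulated data with known changes.

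The members and the 34 gene lists were chosen with earlier results of these data known, and the counts of such lists are descriptions. Named genes were set by rule: the 12 rises and 12 falls with the largest smaller group difference among calls without overlap, 6 genes moved further by each vector, 6 with opposite calls, up to 6 called members of each list, and a fixed set (Idh1, Idh2, Hoxa9, Meis1, Cdkn2a, Cdkn2b, Cdkn1a, Mecom and others). Clone-like symbols were left out. Dnajb1, Hsp90aa1, Hspb1, Hsph1, Atf3, Klf2 and Dusp1, which did not pass, and Ier5 and Ifit2 were named after their values were seen. Deviations from the group means correlated between -0.09 and 0.03 in the 9 pairs of arrays with the same replicate number, so the numbers were not taken as pairs. Promoter windows came from RefSeq on GRCm38.p6, were searched on both strands, and were aligned with Biopython 1.88. Alternatives covered the choice of probe sets, brightness, normalisation, the variance model, array weights, thresholds, the replicate block and each array left out.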

Additional observations from a re-analysis of the deposited data

Results flagged for a closer look

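Groups of 3 arrays are too small for an outlier test, and none was made. The direct comparison of the IDH1 groups (IDH1mut minus IDH1wt, log2, limma) passed for all 18 genes below, which were picked as the largest of their kind, so the combined mean hides a difference between the vectors. Among shared genes that IDH1mut moved further from CTL, Sall2 differed by 4.59 (adjusted p = 6.96e-07), Chil1 by 2.33 (6.96e-07), Socs2 by 2.18 (0.00418) and Fmnl2 by 2.06 (4.75e-06). Rhoj differed by -2.79 (2.37e-05) and Mansc1 by -2.19 (0.000165). The combined call of Socs2 was lost without CTL replicate 1 (adjusted p = 0.079), 2 (0.0724) or 3 (0.0619).

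Among those that IDH1wt moved further, Il17re differed by -2.97 (adjusted p = 0.000935), Ugt8a by -2.09 (0.00209), Pls3 by -1.89 (0.000376) and Perp by -1.85 (3.2e-05). H60c differed by 2.23 (0.000199) and Hspa1b by 1.52 (0.00572), each lower in IDH1wt.

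Each group passed against CTL with opposite signs in the remaining 6 genes. Stfa3 differed by -3.70 (adjusted p = 2.1e-06), Vmn2r26 by -1.99 (4.22e-05), Nav1 by -1.24 (0.000543), Kmo by -1.19 (0.000179) and Raph1 by -1.18 (0.000506), all higher in IDH1wt. Lima1, an actin cytoskeleton regulator, differed by 1.58 (2.37e-05) and was higher in IDH1mut.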

How the results depend on the processing

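Of the 24 named shared genes, 22 kept their call under every alternative in which they were tested, and Bex4 and Clca1 did not. The 24 were chosen by size and lack of overlap in these same arrays, which itself favours keeping a call. Of all 2122 shared calls, 750 were kept whichever array was left out. Among the 24, 8 genes, Ptprg and Pde4d among them, were too dim to be among the brighter genes and had no value there. The combined comparison called 2183 genes, 2122 of them with both groups on the same side, and 284 passed in each group. These 3 counts stayed within 1.5-fold under the other choices of probe sets, both rescalings and the replicate block (1880, 1832 and 221 genes), with 1746 of the 2122 still called under that block. They became 3667, 3496 and 768 with array weights, 1441, 1385 and 45 without variance moderation, 317, 312 and 49 with a 1.2-fold threshold, and 871, 855 and 78 at an adjusted p under 0.01. A 2-group model gave 447 for the first 2, all among the 2122. The genes called in each group numbered 427 among the brighter genes and 494 with an intensity trend and robust variances. With each array left out in turn the counts ran from 879 (without CTL replicate 1) to 2450 (without IDH1wt replicate 1), from 861 to 2382 and from 104 to 409. The combined difference changed sign, always near 0, for Raph1 (from -0.0586 to 0.0926 over the arrays left out, at -0.04 without CTL replicate 3 and -0.0586 without IDH1mut replicate 1) and Kmo (-0.0969 to 0.016, at 0.0023 without CTL replicate 3, 0.016 without IDH1mut replicate 2). Apart from those 4 changes, 2556 results of named genes under an alternative kept their side of the threshold and 690 lost it; the cause was not tested. The median difference of all genes was -0.04, and -0.02 and -0.03 after rescaling. RMA compresses differences between dim probe sets.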

Other observations

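Several genes called in each IDH1 group belonged to none of the lists and were picked out after their values were seen. Nnt, the mitochondrial transhydrogenase that makes NADPH from NADH, read 9.76, 9.73 and 9.95 in CTL, 8.79, 8.69 and 8.74 in IDH1wt, and 8.75, 8.65 and 9.11 in IDH1mut. All 6 IDH1 arrays lay below CTL, and Nnt fell by 1.03 ± 0.11 (SE; limma, adjusted p = 0.000261), with a difference between the vectors of 0.10 (adjusted p = 0.687). C57BL/6J mice are known to carry a partial deletion of Nnt that the related C57BL/6N strain lacks, and the labels do not name the substrain of each sample. Any part of the substrain in this result was not tested.

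Gas5, the host of several small nucleolar RNAs, read 6.19, 6.33 and 6.28 in CTL, 7.49, 7.04 and 7.21 in IDH1wt, and 7.74, 8.09 and 8.39 in IDH1mut, and rose by 1.39 ± 0.14 (SE; limma, adjusted p = 0.000199). Malat1, a nuclear long noncoding RNA, read 9.12, 9.01 and 9.18 in CTL, 8.07, 8.10 and 8.28 in IDH1wt, and 8.54, 8.47 and 8.79 in IDH1mut, and fell by 0.73 ± 0.10 (SE; limma, adjusted p = 0.00101). Neither gene's IDH1 arrays overlapped CTL. Wdfy1, an endosomal adaptor gene, fell by 2.01 in IDH1wt and 0.91 in IDH1mut, and the vectors differed (limma, adjusted p = 0.00143). Pax6, a homeobox gene of eye and brain, fell by 1.30 ± 0.13 (SE; limma, adjusted p = 0.000199), from 4.77, 5.10 and 4.63 in CTL to between 3.27 and 3.72 in the IDH1 arrays. Its IDH1 values lay under the array medians of 4.65 to 4.72 and its CTL values near them, at a level where RMA compresses differences.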
